A study of Mus musculus with 44 samples.

Results

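Border-associated macrophage genes were followed across brain cells sorted as microglia from 5xFAD mice with and without the Trem2 T96K variant. The group holds 10 genes, chosen by name as genes that mark macrophages of the brain's borders: Mrc1, Cd163, Lyve1, F13a1, Pf4, Cbr2, Siglec1, Stab1, Folr2 and Clec10a. Each of the 10 names matched 1 row of the 37583 genes in the female table and in the male table. All mice were 8 months of age. The female table held 7 libraries of 5xFAD mice homozygous for T96K (T96K/T96K), 9 of heterozygous 5xFAD mice (T96K/+), 6 of 5xFAD mice with wild-type Trem2 (Trem2+/+) and 5 of mice without the transgene and with wild-type Trem2 (NonTg). The male table held 6 T96K/T96K, 6 T96K/+ and 5 Trem2+/+ libraries, all 5xFAD, and had no NonTg group, so that 5xFAD was set against NonTg in females alone. 5xFAD mice carry human transgenes driven by the neuronal Thy1 promoter and develop amyloid plaques, and TREM2 is a lipid-sensing receptor of microglia and other myeloid cells.

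Border-associated macrophages live in the perivascular spaces, the leptomeninges, the dura and the stroma of the choroid plexus, outside the parenchyma that microglia occupy. They take up proteins, lipids and debris from the fluids around the brain through scavenger receptors and lectins, and they are told apart from microglia by genes such as Mrc1, Cd163, Lyve1 and Pf4. They carry CD11b and CD45, the 2 surface proteins on which these cells were sorted, and the labels do not say how the CD45 gate was drawn.

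The libraries were SMART-Seq v4 cDNA made into Nextera XT libraries, and each value is an RPKM, reads scaled to gene length and to library size. Recovered totals ran between 5.89 M and 16 M reads in 34 libraries and between 26.5 M and 42.4 M reads in the other 10, and these shallow and deep sets, which no label names, each hold several genotypes. The sets also split by library number. Shallow libraries were numbered 1 to 24 in females and 1 to 15 in males, and deep ones 25 to 34 and 21 to 24. Depth and whatever else goes with the number cannot be told apart. The library labelled female T96K/+ 22 had 0.416 RPKM of Xist and 29.3 RPKM summed over 4 Y-linked genes, against at least 16.9 and at most 0.13 RPKM in the other 26 female libraries. Without it the counts of the 10 genes called against NonTg were the same, no T96K/+ difference of the 10 genes changed its call, and those from Trem2+/+ females all had a limma adjusted p of 0.999. The correlations over 27 female libraries include it and are also given over 26. Microglial markers had the highest median sum of the marker lists in each table: 12 of them summed to 3390 to 13600 RPKM in females and 5590 to 9780 RPKM in males. The 10 border-associated macrophage genes summed to 26.8 to 128 RPKM in females and 38.8 to 77.6 RPKM in males. Neutrophil markers, 8 listed, summed to 33.3 to 6130 RPKM in females and 1730 to 8280 RPKM in males. They exceeded the microglial sum in female Trem2+/+ 25 (6130 against 5010 RPKM) and T96K/T96K 27 (5420 against 3420 RPKM). In a bulk library, fewer border-associated macrophages among the sorted cells, less of a transcript per cell and transcripts of other cells, microglia included, cannot be told apart. The labels do not say whether each library is 1 mouse, so the p-values measure only the spread between these libraries.

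The genes lie on 7 chromosomes of the mm9 build that the authors aligned to. Mrc1, the mannose receptor, spans 14151041 to 14253684 on the plus strand of chromosome 2, and Siglec1, the sialic-acid-binding receptor sialoadhesin, spans 130894956 to 130912501 on the minus strand of the same chromosome. Cd163, the haemoglobin-haptoglobin scavenger receptor, lies at 124254669 to 124280545 on chromosome 6, plus strand. Stab1, a large scavenger receptor also made by sinusoidal endothelium, lies at 31952199 to 31981827 on chromosome 14, minus strand, where its exons share 109 bases with Nt5dc2 on the opposite strand. Lyve1, the hyaluronan receptor that also marks lymphatic endothelium, and Folr2, a folate receptor of tissue macrophages, are both on the minus strand of chromosome 7, at 117994121 to 118006467 and at 108988512 to 108993831. Clec10a, a galactose-type lectin that dendritic cells also carry, lies at 69980125 to 69984336 on the plus strand of chromosome 11, and Cbr2, a carbonyl reductase, lies at 120590803 to 120593428 on its minus strand. F13a1, the A subunit of clotting factor XIII, which monocytes and platelets also hold, lies at 36959047 to 37142113 on chromosome 13, minus strand. Pf4, the chemokine platelet factor 4, lies at 91201461 to 91202407 on chromosome 5, plus strand. Of the 1691 runs of 50 bases in Clec10a transcripts, 242 (14.3%) also occur in its neighbour in sequence Mgl2, so reads of the pair may be counted to either, and Clec10a values are uncertain in that respect. The other 9 genes shared at most 0.691% of such runs with any 1 other protein-coding gene. SMART-Seq with Nextera does not mark strand, so reads from the 109 shared bases of Stab1 cannot be assigned to either gene, a small part of its 10288 exon bases.

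Promoter sequences are shown for the 3 genes that varied together most closely in females (Mrc1, Cd163 and Cbr2) and for the 2 that differed between 5xFAD and NonTg (Stab1 and Folr2). RefSeq windows of 300 bases, 250 before and 50 after the start site on GRCm38.p6, were given for 7 of the 10 genes, 9 windows in all. Capitals mark exact matches, on either strand, of the letters AGGAAGT, bound by the macrophage factor PU.1, or TGCTGAC, a half-site of MAF factors. Mrc1, chr2:14229164-14229463, plus strand:
Mrc1: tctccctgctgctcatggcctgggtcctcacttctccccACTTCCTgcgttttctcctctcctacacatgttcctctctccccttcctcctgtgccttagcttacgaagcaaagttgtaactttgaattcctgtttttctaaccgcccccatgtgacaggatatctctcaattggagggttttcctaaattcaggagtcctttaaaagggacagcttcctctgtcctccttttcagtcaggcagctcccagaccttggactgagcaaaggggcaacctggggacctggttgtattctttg
Cd163, chr6:124304401-124304700, plus strand:
Cd163: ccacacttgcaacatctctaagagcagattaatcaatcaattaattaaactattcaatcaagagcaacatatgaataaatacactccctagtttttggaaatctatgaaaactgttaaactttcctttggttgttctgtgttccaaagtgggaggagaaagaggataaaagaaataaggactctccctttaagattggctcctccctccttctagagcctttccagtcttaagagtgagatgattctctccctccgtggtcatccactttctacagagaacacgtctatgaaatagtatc
Cbr2, chr11:120731972-120732271, minus strand:
Cbr2: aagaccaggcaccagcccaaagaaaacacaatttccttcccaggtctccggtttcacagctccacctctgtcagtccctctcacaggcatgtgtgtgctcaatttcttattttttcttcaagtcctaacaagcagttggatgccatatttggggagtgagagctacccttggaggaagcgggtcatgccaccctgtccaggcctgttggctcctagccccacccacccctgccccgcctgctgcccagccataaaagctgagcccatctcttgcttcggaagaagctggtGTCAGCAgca
Stab1, chr14:31168592-31168891, minus strand:
Stab1: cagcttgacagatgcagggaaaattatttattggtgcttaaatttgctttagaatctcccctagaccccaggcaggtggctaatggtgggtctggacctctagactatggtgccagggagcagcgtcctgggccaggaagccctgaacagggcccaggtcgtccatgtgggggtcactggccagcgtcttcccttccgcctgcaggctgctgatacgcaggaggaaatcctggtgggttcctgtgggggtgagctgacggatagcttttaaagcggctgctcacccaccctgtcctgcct
Folr2, the second of 2 windows, chr7:101857141-101857440, minus strand:
Folr2: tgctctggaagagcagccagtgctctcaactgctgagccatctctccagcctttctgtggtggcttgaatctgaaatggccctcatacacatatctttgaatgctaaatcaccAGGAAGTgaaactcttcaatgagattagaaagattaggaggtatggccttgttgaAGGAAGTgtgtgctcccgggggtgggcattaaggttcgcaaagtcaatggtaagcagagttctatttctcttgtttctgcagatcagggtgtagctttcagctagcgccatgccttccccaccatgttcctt

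The PU.1 letters were found in the windows of Mrc1, Pf4, F13a1 (1 of 2 windows, with 2 matches) and Folr2 (the window printed, with 2 matches), which is 4 of 9 windows. Of all 32851 windows of the table, 9.35% hold them. The MAF letters were found in the Cbr2 window alone, against 4.67% of all windows. The Cd163 and Stab1 windows held neither, which says only that these letters are not in those 300 bases. Matches are a description of the letters.

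Among the 10 genes, levels per length ran over more than an order of magnitude. Stab1 was highest, with a median of 21.8 RPKM over the 27 female libraries (range 6.13 to 79.2) and 15.2 RPKM over the 17 male ones (13.2 to 18.8). Pf4 followed at medians of 9.66 RPKM in females and 11.7 RPKM in males, and then Folr2 at 7.07 and 6.34 RPKM. Cbr2, F13a1 and Mrc1 had medians between 2.46 and 3.49 RPKM in females and between 2.81 and 4.03 RPKM in males. Siglec1, Clec10a, Cd163 and Lyve1 were the lowest, with female medians of 1.23, 0.935, 0.653 and 0.405 RPKM. Their female ranges overlapped, so the order among these 4 is not beyond their spread. Lyve1 had 0 to 106 reads a female library and reached 1 RPKM in 8 of 27, while in males it reached at most 0.875 RPKM and was not tested there. All 10 genes passed the filter on low values in females (at least 1 RPKM in at least 5 libraries) and 9 in males.

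**Figure D1:**
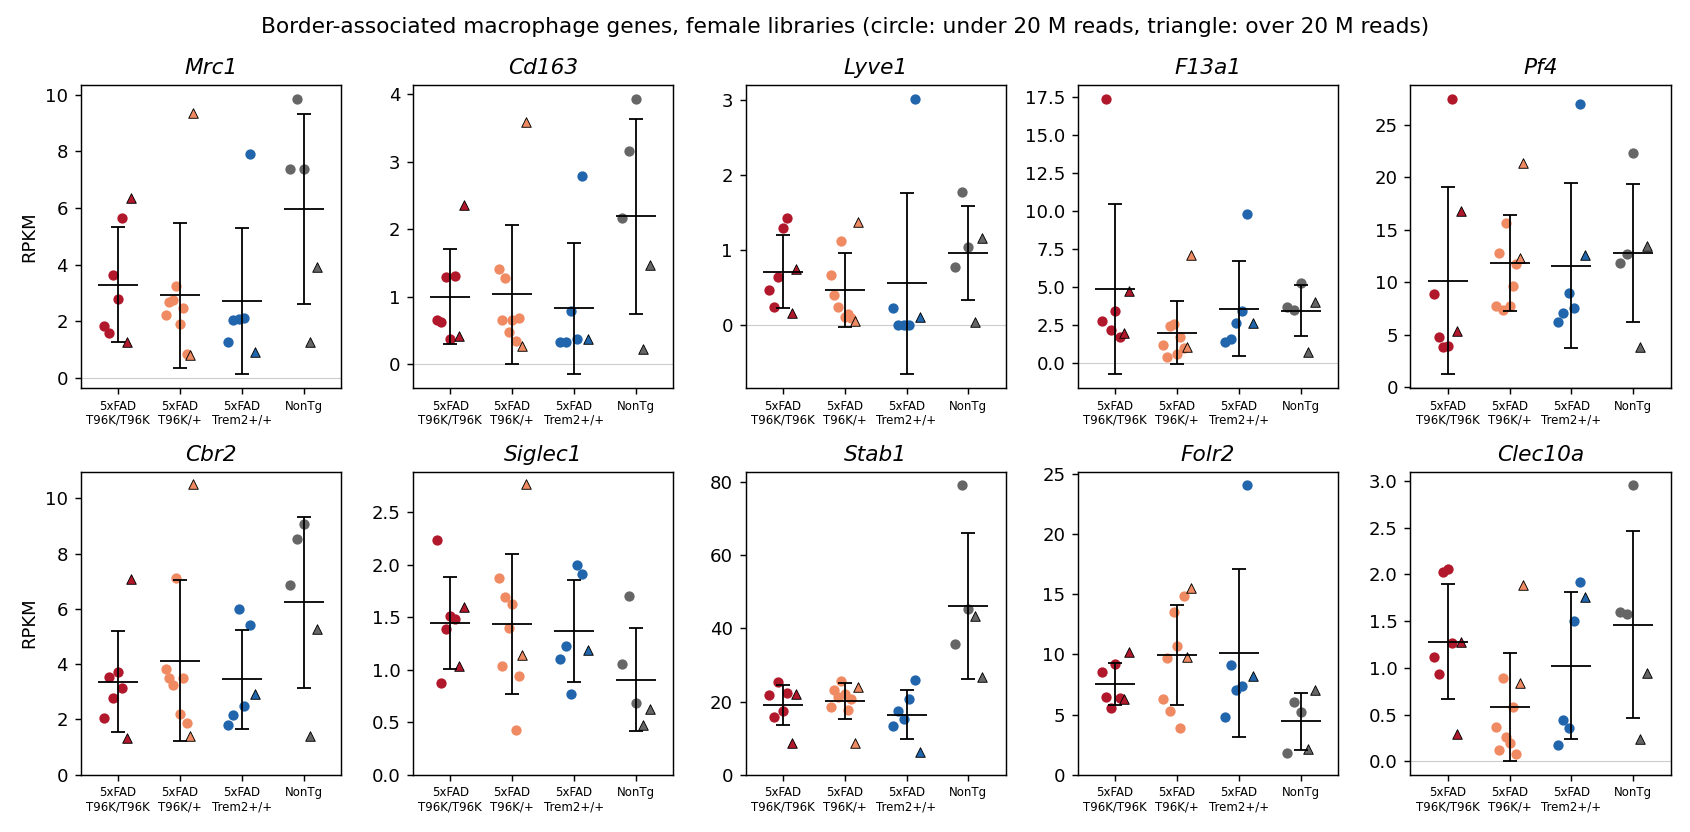
RPKM of each gene (vertical axes, linear) in every female library, by genotype; circles are libraries under 20 M reads and triangles those above, and bars are the mean and SD of 7, 9, 6 and 5 libraries. All 22 5xFAD libraries lie below all 5 NonTg libraries for Stab1, and for Mrc1, Cd163 and Cbr2 most 5xFAD libraries lie below 4 of the 5 NonTg libraries. The share of all genes set apart like Stab1 was not counted.

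The first question was whether the genes differ between 5xFAD and NonTg brains. In females, Stab1 fell in all 3 5xFAD genotypes and Folr2 rose in 2 of them, and none of the other 8 genes passed the test in any. Calls are limma tests on log2(RPKM + 1) with p adjusted over all 14591 genes tested, at 0.05. The 3 comparisons share the same 5 NonTg libraries and are not independent of each other.

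Stab1 ranged between 8.68 and 25.2 RPKM in T96K/T96K females (median 21.8), between 8.68 and 25.5 RPKM in T96K/+ females (median 21.1) and between 6.13 and 25.8 RPKM in Trem2+/+ females (median 16.3), against 35.8, 79.2, 45.2, 43.3 and 26.6 RPKM in the 5 NonTg females. No 5xFAD library reached the lowest NonTg library, and the share of all genes set apart like this was not counted. The group means were 19 ± 5.54 RPKM in T96K/T96K (SD, n = 7), 20.2 ± 4.97 in T96K/+ (n = 9), 16.4 ± 6.70 in Trem2+/+ (n = 6) and 46.0 ± 20 in NonTg (n = 5). On the log2(RPKM + 1) scale Stab1 differed from NonTg by -1.20 (SE 0.29, limma adjusted p = 0.00547) in T96K/T96K, by -1.11 (SE 0.28, adjusted p = 0.00696) in T96K/+ and by -1.45 (SE 0.30, adjusted p = 0.00108) in Trem2+/+. The mean of the 3 genotypes differed by -1.25 (SE 0.25, adjusted p = 0.00051), a ratio of 0.419. These values rest on 1358 to 12573 reads of Stab1 a library. With each library left out in turn the difference of the mean stayed between -1.42 and -1.04, with adjusted p of at most 0.00453, and without the library labelled T96K/+ 22 it was -1.25 (adjusted p = 7e-04). Within the shallow libraries the difference was -1.31 (adjusted p = 3.88e-05), and within the 7 deep ones -1.56 (adjusted p = 0.209). Endothelial markers fell too, though not alike in each genotype. All 8 of 8 were called lower in the mean of the 3 genotypes and in Trem2+/+, 6 in T96K/+ and 1 in T96K/T96K. Their median difference was -0.62 in T96K/T96K, -0.99 in T96K/+ and -1.31 in Trem2+/+. Their summed level was 803 to 2540 RPKM in T96K/T96K, 447 to 1590 RPKM in T96K/+, 448 to 1020 RPKM in Trem2+/+ and 1260 to 2780 RPKM in NonTg. With their mean log2 level in the fit, Stab1 differed by -1.24 in Trem2+/+ (adjusted p = 0.0904) and by -0.94 in T96K/+ (adjusted p = 0.132) and was no longer called there, while it stayed called in T96K/T96K and in the mean of the 3. The part of endothelial RNA in the Stab1 difference was not tested beyond this fit. Microglial markers summed to 3390 to 10900 RPKM in NonTg. In T96K/T96K, T96K/+ and Trem2+/+ the sums were 3420 to 9910, 4980 to 12000 and 5010 to 13600 RPKM. The part of microglial RNA in the Stab1 difference was not tested.

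Folr2 ranged between 5.57 and 10.2 RPKM in T96K/T96K females (median 6.45), between 3.89 and 15.5 RPKM in T96K/+ females (median 9.80) and between 4.82 and 24.1 RPKM in Trem2+/+ females (median 7.80), against 1.77, 6.05, 5.20, 2.17 and 7.02 RPKM in NonTg females. The ranges overlapped: 3 of 7 T96K/T96K, 6 of 9 T96K/+ and 5 of 6 Trem2+/+ libraries lay above the highest NonTg library. Group means were 7.53 ± 1.77 RPKM in T96K/T96K, 9.95 ± 4.19 in T96K/+, 10.1 ± 7.01 in Trem2+/+ and 4.44 ± 2.35 in NonTg. Folr2 rose by 1.03 in log2(RPKM + 1) in T96K/+ (SE 0.31, limma adjusted p = 0.0242) and by 0.98 in Trem2+/+ (SE 0.34, adjusted p = 0.0364), and its difference of 0.75 in T96K/T96K did not pass (SE 0.33, adjusted p = 0.126). The mean of the 3 genotypes differed by 0.92 (SE 0.28, adjusted p = 0.0161). Single libraries decided this call: without NonTg 4 the difference of the mean was 0.71 (adjusted p = 0.103) and without NonTg 28 it was 0.76 (adjusted p = 0.0657), and the T96K/+ and Trem2+/+ calls were lost without either. The Trem2+/+ call was also lost without Trem2+/+ 7, 19 or 25, with adjusted p of 0.054, 0.0986 and 0.0538. Within the shallow libraries the difference of the mean was 0.89 (adjusted p = 0.0774), and without the library labelled T96K/+ 22 the T96K/+ difference was 1.16 (adjusted p = 0.0084). With the endothelial level in the fit the Folr2 difference of the mean was 0.64 (adjusted p = 0.342).

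The receptors Mrc1, Cd163 and Lyve1 and the enzyme Cbr2 were below NonTg on average in each genotype without passing the test. Mrc1 ranged between 1.26 and 6.35 RPKM in T96K/T96K females (median 2.77), between 0.795 and 9.36 RPKM in T96K/+ females (median 2.46) and between 0.899 and 7.89 RPKM in Trem2+/+ females (median 2.06), against 7.38, 9.86, 7.36, 1.28 and 3.91 RPKM in NonTg females. Here 3 NonTg libraries were high and NonTg 28 lay among the 5xFAD libraries, of which T96K/+ 33 and Trem2+/+ 19 alone reached those 3. Its log2 differences were -0.65 (SE 0.42, limma adjusted p = 0.319) in T96K/T96K, -0.84 (SE 0.40, adjusted p = 0.164) in T96K/+ and -0.92 (SE 0.44, adjusted p = 0.131) in Trem2+/+. Cd163 had medians of 0.649, 0.653 and 0.369 RPKM in T96K/T96K, T96K/+ and Trem2+/+, against 2.16, 3.16, 3.93, 0.218 and 1.47 RPKM in NonTg, and its mean difference over the 3 genotypes was -0.66 (SE 0.29, adjusted p = 0.0918). Cbr2 had medians of 3.13, 3.49 and 2.69 RPKM in T96K/T96K, T96K/+ and Trem2+/+, against 6.88, 8.54, 9.08, 1.39 and 5.28 RPKM in NonTg, and a mean difference of -0.60 (SE 0.32, adjusted p = 0.17). Lyve1 had medians of 0.644, 0.239 and 0.0562 RPKM in T96K/T96K, T96K/+ and Trem2+/+, against 0.78, 1.78, 1.04, 0.0517 and 1.16 RPKM in NonTg, with 3 of 6 Trem2+/+ libraries at 0 reads, and a mean difference of -0.36 (SE 0.26, adjusted p = 0.341).

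The calls for these genes changed with the libraries that entered the fit. With the depth set as a covariate over all 27 libraries no call changed, and the mean of the 3 genotypes differed by -0.86 for Mrc1 (limma adjusted p = 0.0777), by -0.68 for Cd163 (adjusted p = 0.0851) and by -0.64 for Cbr2 (adjusted p = 0.149). Within the 20 shallow female libraries Mrc1, Cd163 and Cbr2 fell in all 3 genotypes: the mean of the 3 differed from NonTg by -1.37 for Mrc1 (SE 0.31, limma adjusted p = 0.00271), by -1.18 for Cd163 (SE 0.26, adjusted p = 0.00189) and by -1.12 for Cbr2 (SE 0.27, adjusted p = 0.00348). In that fit Clec10a also fell in T96K/+ (-1.16, adjusted p = 0.00419) and in the mean of the 3 (-0.74, adjusted p = 0.0272), and the count of genes called was 4, 5 and 4 of 10 in T96K/T96K, T96K/+ and Trem2+/+ and 5 in the mean, all lower, against 22.7%, 20.7%, 27.5% and 29.8% of all genes called in either direction. The share of all genes called lower alone in the shallow fit is not given here. In the fit of all 27 libraries it was 5.05%, 7.07%, 10% and 11.3%. The shallow fit also leaves out NonTg 28 and T96K/+ 33, which are described next, so depth and these libraries cannot be told apart in it. Microglial markers summed to 6480 to 13600 RPKM in the shallow 5xFAD females, against 4330, 5510 and 3390 RPKM in the 3 shallow NonTg libraries 4, 10 and 24, all 3 below every shallow 5xFAD library. In the deep libraries the order was the other way, with 3420 to 8080 RPKM in 5xFAD females, against 10900 and 9560 RPKM in NonTg 28 and 30. The part of the microglial level in these calls was not tested. Within the 7 deep libraries none of the 10 was called, and 22 to 121 of all genes were. The deep female set was itself uneven. Mrc1 had 0.899, 0.795, 1.26 and 1.28 RPKM in Trem2+/+ 25, T96K/+ 26, T96K/T96K 27 and NonTg 28. It had 3.91, 9.36 and 6.35 RPKM in NonTg 30, T96K/+ 33 and T96K/T96K 34. Cd163, Lyve1, Cbr2, F13a1 and Pf4 were split in the same way, and Siglec1, Stab1, Folr2 and Clec10a overlapped. The depth covariate does not separate these libraries. NonTg 28, a deep library, had the lowest NonTg value of 8 of the 10 genes, all but Stab1 and Folr2. Without it Clec10a also fell in T96K/+ (-0.83, adjusted p = 0.0374), and the mean of the 3 genotypes differed by -1.16 for Mrc1 (adjusted p = 0.0192), by -0.97 for Cd163 (adjusted p = 0.0122) and by -0.96 for Cbr2 (adjusted p = 0.0219). At the other end, Trem2+/+ 19 was among the 5 highest female libraries for 8 of the 10 genes and T96K/+ 33 for 9. Without Trem2+/+ 19 alone, Lyve1 fell in Trem2+/+ (-0.81, limma adjusted p = 0.0248), and without T96K/+ 33 alone Cd163 fell in the mean of the 3 (-0.71, adjusted p = 0.0445). In a fit without those 2 libraries, chosen after their values were seen, Mrc1 differed by -0.97 (adjusted p = 0.0168) and Cd163 by -0.79 (adjusted p = 0.0139) in the mean of the 3. The count called was then 1, 4 and 4 of 10 in T96K/T96K, T96K/+ and Trem2+/+ and 4 in the mean, against 15.1%, 15%, 23.3% and 25.7% of all genes.

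The remaining 4 genes did not pass either. Pf4 had medians of 5.37, 11.7 and 8.28 RPKM in T96K/T96K, T96K/+ and Trem2+/+, against 11.8, 12.7, 22.3, 3.81 and 13.5 RPKM in NonTg, and F13a1 had medians of 2.76, 1.19 and 2.64 RPKM against 3.68, 3.50, 5.26, 0.702 and 4.03 RPKM in NonTg. Their mean differences of -0.21 (SE 0.35, limma adjusted p = 0.698) and -0.17 (SE 0.38, adjusted p = 0.778) had 95% intervals of -0.94 to 0.52 and -0.96 to 0.62. Clec10a had medians of 1.26, 0.363 and 0.969 RPKM in T96K/T96K, T96K/+ and Trem2+/+, against 1.60, 1.57, 2.95, 0.237 and 0.942 RPKM in NonTg (mean difference -0.31, SE 0.25, adjusted p = 0.38). Siglec1 was the only gene besides Folr2 that was higher on average in all 3, with medians of 1.48, 1.40 and 1.21 RPKM in T96K/T96K, T96K/+ and Trem2+/+, against 1.05, 1.70, 0.686, 0.472 and 0.621 RPKM in NonTg. Its mean difference of 0.35 (SE 0.17) had an adjusted p of 0.133, which was 0.044 without NonTg 10, and limma voom on the recovered reads called it, at 0.88 (SE 0.29, adjusted p = 0.0208).

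**Figure D2:**
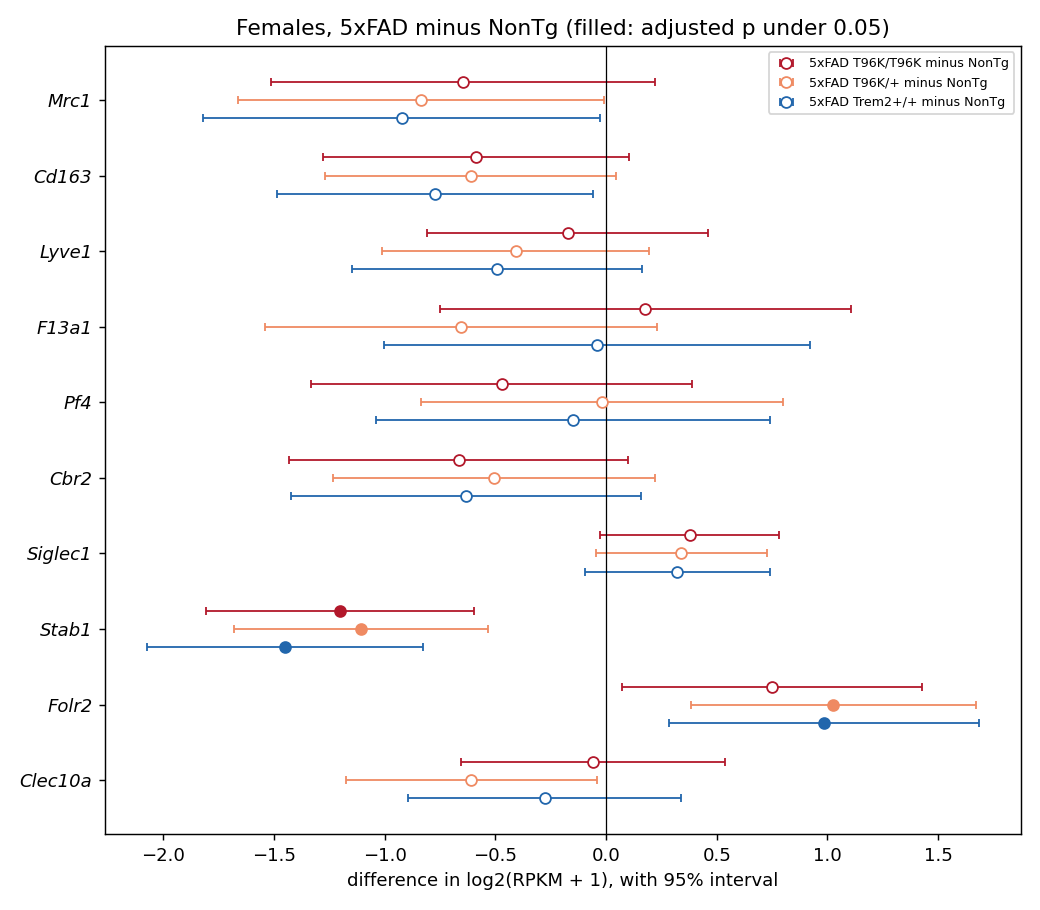
Difference of each 5xFAD genotype from NonTg in females in log2(RPKM + 1), with 95% intervals from limma, for the 10 genes; filled points have an adjusted p under 0.05. The 3 Stab1 points are filled at -1.20, -1.11 and -1.45, and Folr2 is filled in T96K/+ and Trem2+/+.

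Counted together, 1 of the 10 genes was called in T96K/T96K, 2 in T96K/+ and 2 in Trem2+/+, against 15.3%, 17.3% and 23.6% of all 14591 genes, so the shares of 10 to 20% lie near the background. In the mean of the 3 genotypes 2 of 10 were called, against 25.8%. By direction, 0, 1 and 1 genes were called higher in T96K/T96K, T96K/+ and Trem2+/+ where 10.3%, 10.3% and 13.5% of all genes were, and 1 was called lower in each where 5.05%, 7.07% and 10% were. In the mean, 1 rose where 14.5% of all genes did and 1 fell where 11.3% did. The median difference over the 10 genes was -0.32 in T96K/T96K, -0.56 in T96K/+ and -0.39 in Trem2+/+, and that over all genes tested was 0.03, 0.03 and 0.04.

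Markers of other cells that hold some of these transcripts moved too. Endothelial, lymphatic endothelial, mural and fibroblast cells lack CD11b and CD45, so the sort would remove intact ones, and their transcripts were measured all the same. Of the 7 tested fibroblast markers (8 listed) all 7 fell in the mean of the 3 genotypes, with sums of 10.7 to 28.1 RPKM in T96K/T96K, 8.18 to 32.1 RPKM in T96K/+, 8.06 to 24.0 RPKM in Trem2+/+ and 11.9 to 54.1 RPKM in NonTg, and 4 of 7 tested mural markers (8 listed) fell. By genotype, 2, 5 and 6 fibroblast and 1, 2 and 4 mural markers were called lower in T96K/T96K, T96K/+ and Trem2+/+. Lymphatic endothelial markers, which share Lyve1, summed to 2.81 to 9.73 RPKM in T96K/T96K, 3.05 to 6.91 RPKM in T96K/+, 2.18 to 5.33 RPKM in Trem2+/+ and 5.11 to 13.1 RPKM in NonTg, with 1 of 6 at 0 in every library and 2 of 3 tested lower. Dendritic cell markers, which share Clec10a, summed to 10.5 to 27.7 RPKM in T96K/T96K, 10 to 25.4 RPKM in T96K/+, 14.1 to 28 RPKM in Trem2+/+ and 30.2 to 49.2 RPKM in NonTg, and 3 of 7 tested (11 listed) fell in the mean of the 3 genotypes. Platelet and megakaryocyte markers, which share Pf4, summed to 4.89 to 21 RPKM in T96K/T96K and 4.06 to 12.7 RPKM in T96K/+. In Trem2+/+ they summed to 2.76 to 87.2 RPKM, the highest in Trem2+/+ 13, and in NonTg to 11.9 to 22.2 RPKM. Of 2 tested (10 listed) 1 rose and 1 fell. Monocyte markers, which share F13a1, summed to 42.0 to 210 RPKM in T96K/T96K, 13.9 to 132 RPKM in T96K/+, 39.6 to 230 RPKM in Trem2+/+ and 37.5 to 131 RPKM in NonTg, and 1 of 8 tested (10 listed) rose. The part of these cells in the differences of the 10 genes was not tested.

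Other genes of border-associated macrophages gave a mixed picture. Of 30 listed, 29 are named in the tables and 24 were tested in females. In the mean of the 3 5xFAD genotypes 5 fell and 2 rose, against the 11.3% and 14.5% of all genes above. Those that fell were Igfbp4, an insulin-like growth factor binding protein (-0.95, SE 0.23, limma adjusted p = 0.0032), the iron exporter Slc40a1 (-1.40, SE 0.35, adjusted p = 0.00381), the endothelin receptor Ednrb (-0.66, SE 0.16, adjusted p = 0.00398), the lectin Mgl2 (-0.89, SE 0.32, adjusted p = 0.0431) and the transcription factor Maf (-0.52, SE 0.19, adjusted p = 0.0477). Those that rose were the chemokine Ccl12 (1.07, SE 0.17, adjusted p = 4.61e-05) and the endocytic adaptor Dab2 (0.54, SE 0.19, adjusted p = 0.0394). Ccl12 ranged between 77.6 and 133 RPKM in T96K/T96K, between 92.9 and 176 RPKM in T96K/+ and between 70.0 and 161 RPKM in Trem2+/+, against 35.8 to 74.9 RPKM in NonTg. Slc40a1, which endothelium and microglia also express, ranged between 18.5 and 93.6 RPKM in T96K/T96K, between 20.8 and 112 RPKM in T96K/+ and between 16.9 and 63.6 RPKM in Trem2+/+, against 70.6 to 258 RPKM in NonTg. Cd209f, a lectin largely limited to border-associated macrophages in mice, did not pass (-0.52, SE 0.31, adjusted p = 0.242).

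The second question was whether T96K alters the genes within 5xFAD. In females none of the 10 was called for T96K/T96K or T96K/+ against Trem2+/+, or for T96K/T96K against T96K/+, and 0% of the 14591 genes were called in any of the 3. By unadjusted p under 0.05, 544, 523 and 514 of all genes passed in these comparisons. Among the 10, none did against Trem2+/+, and 2 did for T96K/T96K against T96K/+: F13a1 (0.83, SE 0.39, unadjusted p = 0.0422) and Clec10a (0.55, SE 0.25, unadjusted p = 0.0365), both with a limma adjusted p of 0.978. F13a1 read 17.4 RPKM in T96K/T96K 9, with 4.75 RPKM in the next library, and without it the difference was 0.50. That library also had the second highest monocyte marker sum of the female table, 210 RPKM. For Mrc1 the 95% interval of T96K/T96K against Trem2+/+ was -0.55 to 1.10 around 0.28, and for Stab1 it was -0.32 to 0.82 around 0.25, so differences within those bounds were not distinguishable here.

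In males none of the 9 genes tested was called for T96K, and Lyve1 was not tested. For T96K/T96K against Trem2+/+, 8 of the 9 genes tested were lower on average, with a median of -0.44 against 0.00 over all 13845 genes tested, and for T96K/+ against Trem2+/+ 8 of 9 were lower, with a median of -0.29 against -0.02. The gene that was not lower was Cbr2 in both. The 21 tested genes of the list of other border-associated macrophage genes had medians nearer to that of all genes, -0.15 in T96K/T96K and -0.09 in T96K/+. Lists of other cells also had medians away from 0, and no gene of any list was called. In T96K/T96K the median difference was -0.18 for microglial, -0.23 for disease-associated microglial and -0.42 for monocyte markers, and in T96K/+ it was -0.26, -0.32 and -0.67. For neutrophil markers it was 0.06 in T96K/T96K and -0.84 in T96K/+. Endothelial, mural and fibroblast markers had medians of 0.14, 0.38 and 0.26 in T96K/T96K and of 0.48, 0.55 and 0.64 in T96K/+. The part of these shifts in the differences of the 9 genes was not tested. At an unadjusted p under 0.05, 5 of 9 passed for T96K/T96K and 3 of 9 for T96K/+, beside 1193 and 1703 of all genes, and 0% of all genes passed the adjusted test in either. For T96K/T96K against T96K/+, 0 of 9 and 342 of all genes passed unadjusted and 0% adjusted.

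F13a1 gave the largest male difference. It had 3.61, 1.45, 2.15, 2.44, 1.13 and 1.78 RPKM in T96K/T96K males (mean 2.10 ± 0.878, SD, n = 6) and 1.75, 2.55, 3.94, 3.91, 1.77 and 3.79 RPKM in T96K/+ males (2.95 ± 1.06, n = 6), against 5.21, 5.92, 3.61, 4.53 and 3.86 RPKM in Trem2+/+ males (4.63 ± 0.956, n = 5). All 6 T96K/T96K libraries lay below the Trem2+/+ range, the highest of them by less than the last digit given. The share of all genes with ranges set apart like this was not counted. The log2 difference of T96K/T96K was -0.89 (SE 0.21, unadjusted p = 0.000491, limma adjusted p = 0.318) and that of T96K/+ was -0.54 (SE 0.21, adjusted p = 0.332). Leaving out each library in turn kept the T96K/T96K difference between -1.01 and -0.79, and within the shallow libraries it was -0.92. Monocyte markers summed to 32.5 to 129 RPKM in T96K/T96K males, 43.0 to 98.3 RPKM in T96K/+ males and 71.8 to 108 RPKM in Trem2+/+ males, and their part in the F13a1 values was not tested.

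Stab1 had 14.1, 13.7, 17.4, 15.2, 14.8 and 16.4 RPKM in T96K/T96K males and 14.1, 15, 15.3, 14.1, 13.2 and 14 RPKM in T96K/+ males, against 18.3, 15.6, 17.6, 18.8 and 17.2 RPKM in Trem2+/+ males. The T96K/+ libraries all lay below the Trem2+/+ range and the T96K/T96K libraries overlapped it. How many of all genes separate in this way was not counted, so this separation has no background beside it. Its differences were -0.19 (SE 0.07, limma adjusted p = 0.513) in T96K/T96K and -0.27 (SE 0.07, unadjusted p = 0.00107, adjusted p = 0.237) in T96K/+. The spread of Stab1 within a male group, an SD of 0.745 to 1.40 RPKM, was below that in the female 5xFAD groups, 4.97 to 6.70 RPKM. The 2 tables were normalized separately. Folr2 averaged 5.97 ± 1.38 RPKM in T96K/T96K males and 5.84 ± 1.98 RPKM in T96K/+ males, against 8.88 ± 1.89 RPKM in Trem2+/+ males (SD, n = 6, 6 and 5), and its adjusted p was 0.534 and 0.319. Pf4 was 9.57 to 11.4 RPKM in T96K/T96K males and 7.89 to 19.8 RPKM in T96K/+ males, against 27.7, 8.56, 25, 23.3 and 11.7 RPKM in Trem2+/+ males, where 3 libraries were high and 2 lay in the T96K range. Cbr2 was at 4 ± 1.75 RPKM in T96K/T96K and 4.17 ± 1.05 RPKM in T96K/+ males, against 3.70 ± 1.09 RPKM in Trem2+/+ males.

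**Figure D3:**
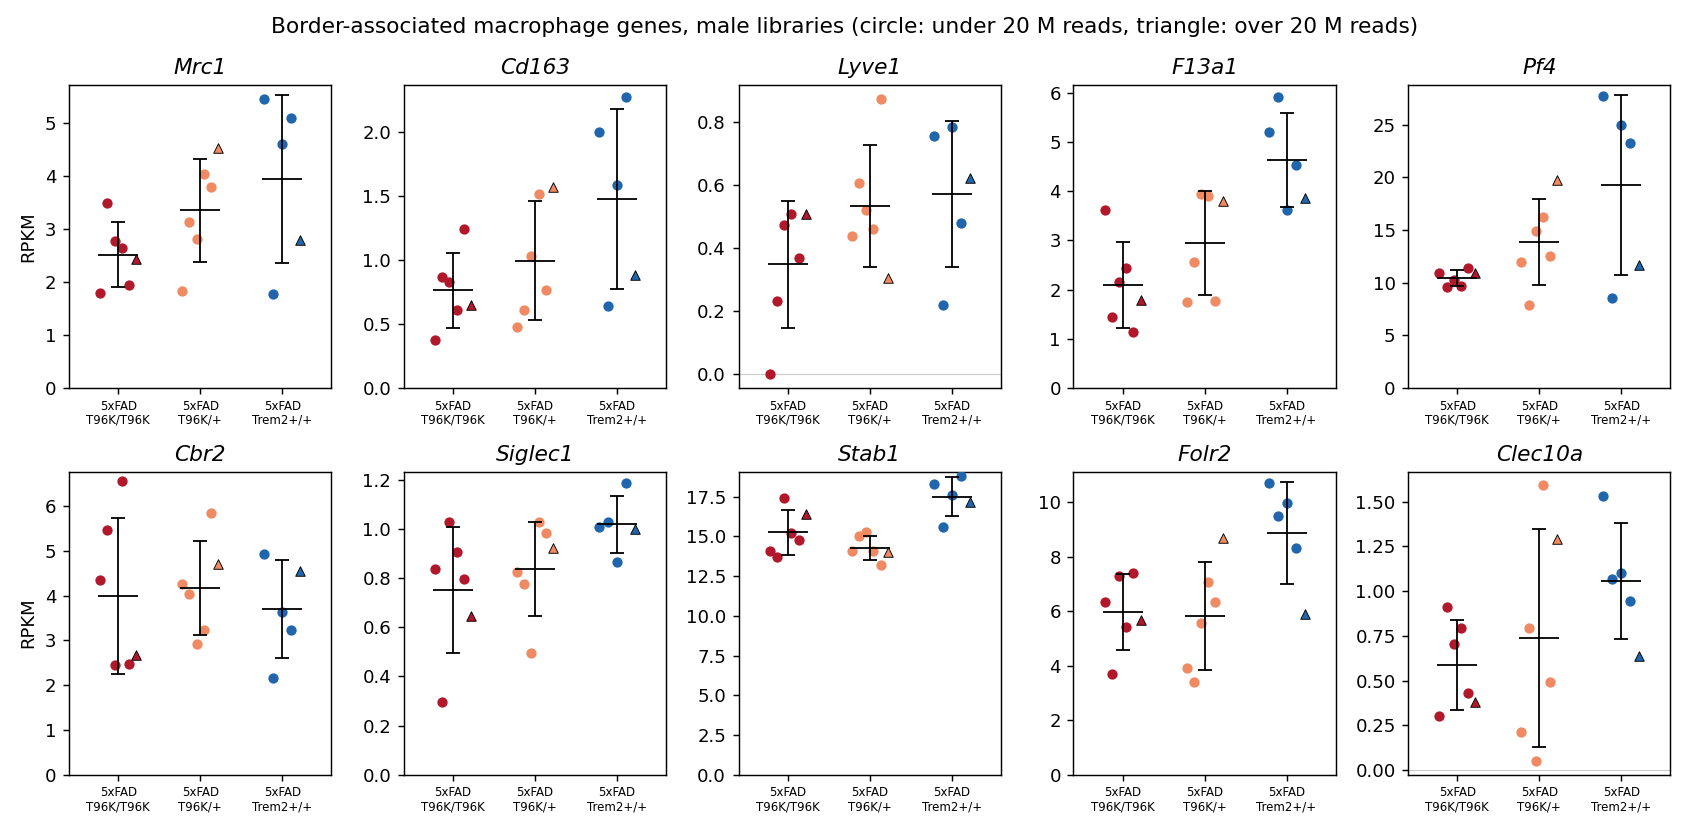
RPKM of each gene (vertical axes, linear) in every male library, by genotype; circles are libraries under 20 M reads and triangles those above, and bars are the mean and SD of 6, 6 and 5 libraries. F13a1 averages 2.10, 2.95 and 4.63 RPKM in T96K/T96K, T96K/+ and Trem2+/+, and Cbr2 stays near 4 RPKM in all 3.

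The effects of T96K were not shown to differ between the sexes. The female minus male difference of the T96K/T96K effect was 1.11 for F13a1 (SE 0.54, unadjusted p = 0.0478, limma adjusted p = 0.865), 0.72 for Mrc1 (SE 0.51, adjusted p = 0.876) and 0.44 for Stab1 (SE 0.34, adjusted p = 0.879). For the T96K/+ effect it was 0.62 for Stab1 (SE 0.33, adjusted p = 0.928) and 0.60 for Folr2 (SE 0.40, adjusted p = 0.928). None of the 9 genes, and 0% of the 13636 genes tested in both tables, were called in either, while 760 and 643 of all genes had an unadjusted p under 0.05.

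**Figure D4:**
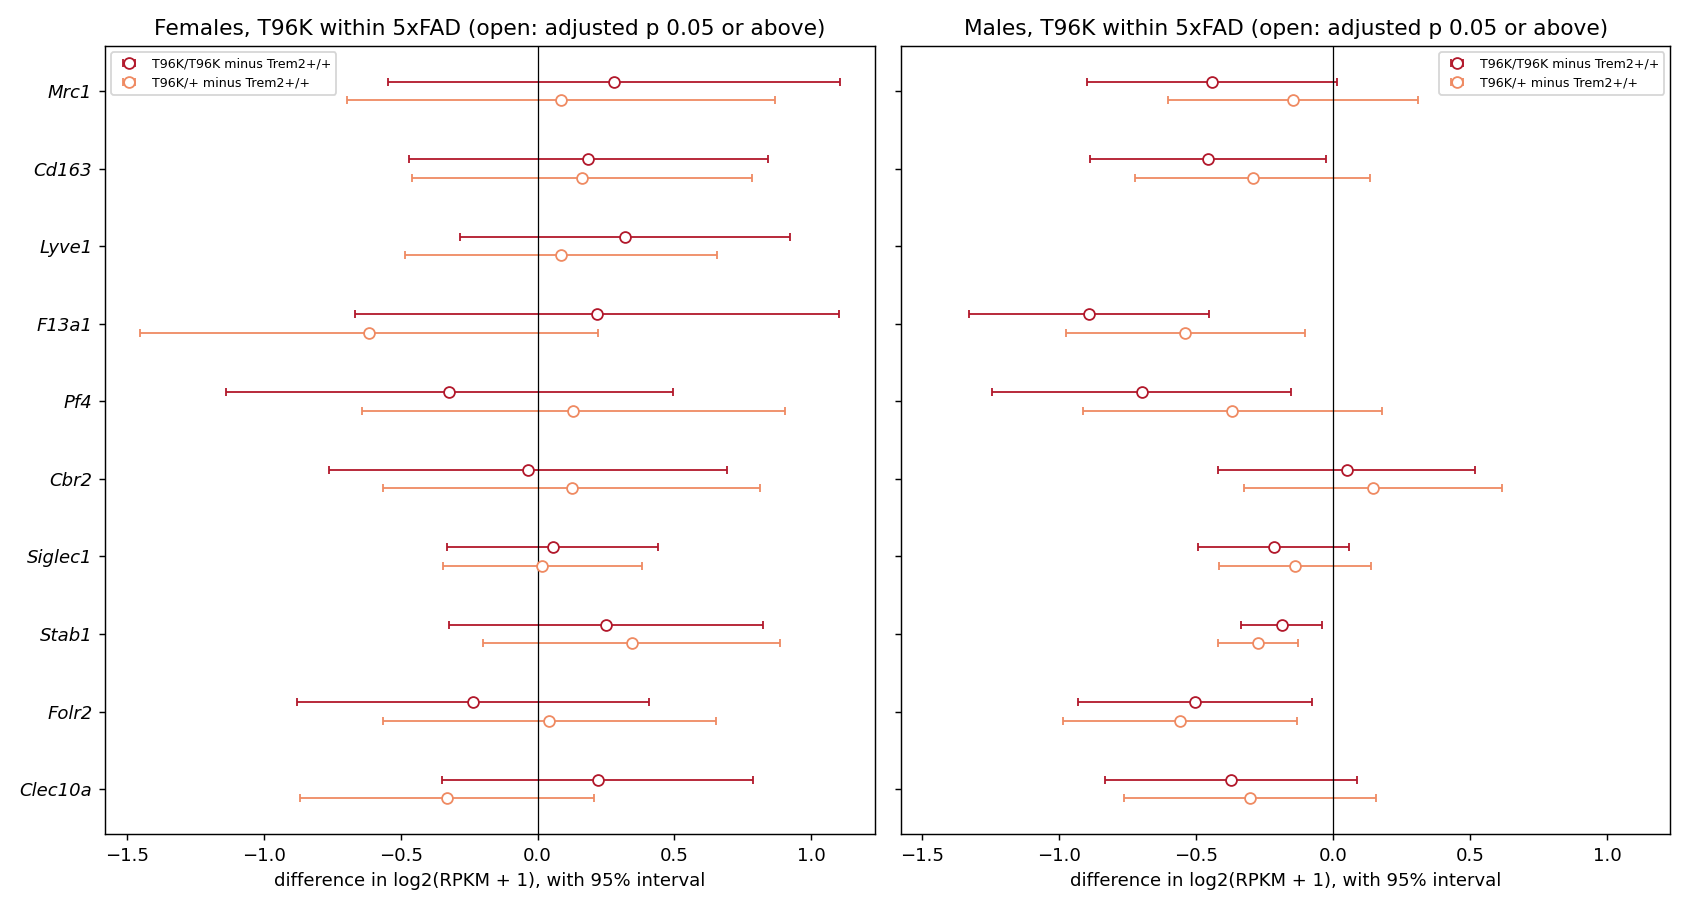
Differences of T96K/T96K and T96K/+ from Trem2+/+ within 5xFAD in log2(RPKM + 1), with 95% intervals from limma, in females (left) and males (right); open points have an adjusted p of 0.05 or above, and Lyve1 was not tested in males. Female intervals include 0 for all 10 genes, and the male F13a1 points lie at -0.89 and -0.54.

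The genes also varied together between libraries of 1 genotype. After centring log2(RPKM + 1) on the genotype means, all 45 pairs were positively correlated over the 27 female libraries, with a median r of 0.53 and 24 pairs at 0.5 or above. The closest pairs were Mrc1 with Cd163 (0.87), Mrc1 with Cbr2 (0.83) and Mrc1 with Lyve1 (0.81). The weakest were Stab1 with Clec10a (0.16), F13a1 (0.17) and Pf4 (0.20). Without the library labelled T96K/+ 22, all 45 pairs stayed positive, with a median r of 0.55 and 26 pairs at 0.5 or above, and Mrc1 had an r of 0.88 with Cd163, 0.83 with Cbr2 and 0.81 with Lyve1. Over the 17 male libraries the 36 pairs had a median r of 0.21, 29 of them above 0, and the closest were Cd163 with Pf4 (0.81) and Mrc1 with Cd163 (0.78). These libraries share depth sets and sorts, and with centring on genotype and depth set the medians were 0.50 in females and 0.13 in males. That centring does not remove the uneven levels within the deep female set.

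Mrc1, whose product CD206 is a common surface marker of these macrophages, was set against each of the others in both tables, 17 relations with p from 100000 permutations within genotype groups, adjusted over the 17. In females Cd163 (r = 0.87, rho = 0.72, adjusted permutation p = 8.5e-05 and 0.00119), Cbr2 (r = 0.83, rho = 0.78, adjusted permutation p = 8.5e-05 and 0.00051) and Lyve1 (r = 0.81, rho = 0.74, adjusted permutation p = 0.00023 and 0.00102) followed it most closely, and for Mrc1 with Cd163 and Cbr2 the unadjusted p for r was the smallest that the permutations can give, 1e-05. Without the 2 libraries farthest from the median of Mrc1, Trem2+/+ 19 and T96K/+ 33, r was 0.79, 0.80 and 0.72. Stab1 followed Mrc1 at r = 0.62 and rho = 0.67 (adjusted permutation p = 0.00692 and 0.00259, and r = 0.59 without the 2 libraries). Folr2 did not pass (r = 0.40, rho = 0.25, adjusted permutation p = 0.0886 and 0.298), and the relation of F13a1 rested on those 2 libraries (r = 0.52, rho = 0.49, adjusted permutation p = 0.0143 and 0.027, and r = 0.25 without them). In males Mrc1 varied with Cd163 (r = 0.78, rho = 0.80, adjusted permutation p = 0.00646 and 0.00578), Clec10a (r = 0.60, rho = 0.68, adjusted permutation p = 0.0143 and 0.00892) and Pf4 (r = 0.70, rho = 0.68, adjusted permutation p = 0.0307 and 0.0288), with r of 0.64, 0.70 and 0.58 without Trem2+/+ 2 and T96K/+ 3. Male F13a1 (r = 0.01, rho = 0.04, adjusted permutation p = 0.97 and 0.87) showed no such relation. Male Cbr2 (r = 0.37, rho = 0.34, adjusted permutation p = 0.187 and 0.276) and Stab1 (r = 0.31, rho = 0.26, adjusted permutation p = 0.288 and 0.386) did not pass. Nor did male Folr2 (r = 0.28, rho = 0.30, adjusted permutation p = 0.349 and 0.298) or Siglec1 (r = -0.01, rho = 0.12, adjusted permutation p = 0.97 and 0.669).

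**Figure D5:**
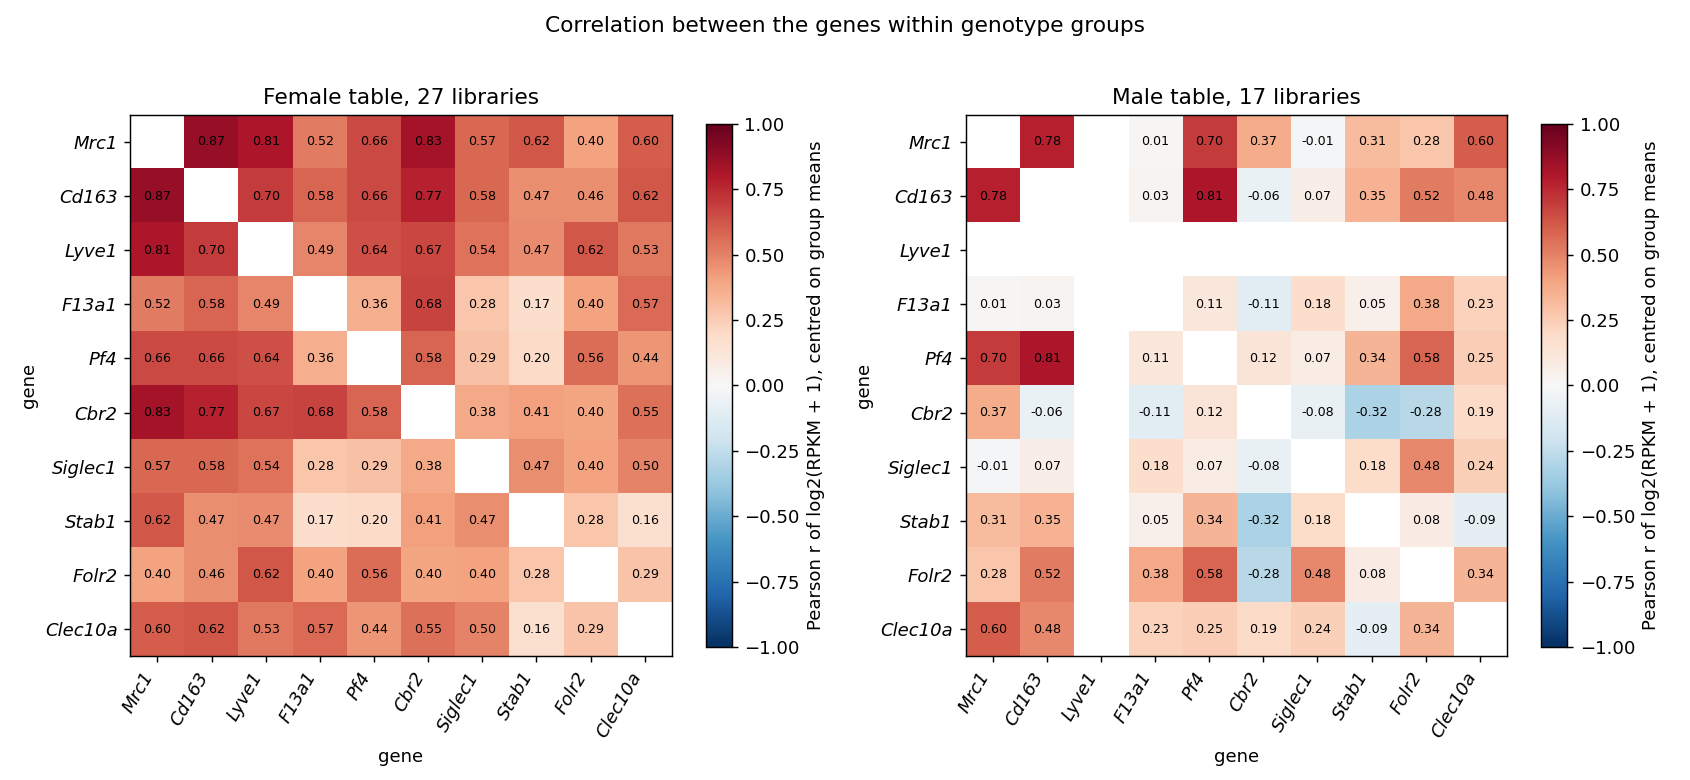
Pearson correlations between the genes over 27 female (left) and 17 male (right) libraries, from log2(RPKM + 1) centred on genotype means; colour runs from -1 to 1, and Lyve1 is blank in males. Mrc1, Cd163, Lyve1 and Cbr2 form the strongest block in females, and Mrc1, Cd163 and Pf4 in males.

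Read against all genes, the members were near neighbours of each other to different degrees in females. Of the 9 other genes, 7 were among the 100 genes closest to Mrc1, 7 for Cd163 and 7 for Lyve1, where 100 genes are 0.685% of those ranked. For Cbr2 and Clec10a it was 6 of 9, for F13a1 and Pf4 5 of 9, and for Siglec1 and Folr2 2 of 9. Stab1 was among the 100 closest to Mrc1, but none of the 9 was among the 100 closest to Stab1, whose nearest gene was Srgap2 (r = 0.92). In males 3 of 8 were found for Mrc1 (Cd163, Pf4 and Clec10a), 2 of 8 for Cd163 and for Pf4, 1 of 8 for Clec10a and none for the other 5, where 100 genes are 0.722%.

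The genes whose pattern was most like the mean of the 10 in both tables, out of 13636 compared, included 4 other listed border-associated macrophage genes. The 10 genes and that list were chosen with earlier results of these data known, so this is a description and not independent support. Likeness is the lower of the female and male r after centring on genotype. Cd209f came first (r = 0.90 over 27 female and 0.76 over 17 male libraries), then the chemokine Ccl8 (0.71 and 0.61), Mgl2 (0.74 and 0.60), the kinase gene Stk17b (0.60 and 0.58), the lectin Clec12a (0.57 and 0.59) and the kinase gene Dyrk1a (0.65 and 0.57). Clec10a is part of the mean and shares stretches of sequence with Mgl2, and against the mean of the other 9 the r of Mgl2 was 0.72 in females and 0.55 in males. Cd209a, listed as a dendritic cell marker (0.55 and 0.83), Scaf8 (0.54 and 0.51), Cass4 (0.51 and 0.58) and a U6 RNA gene (0.50 and 0.51) completed the first 10. The median r over all genes compared was -0.02 in females and 0.03 in males. Cd209f had medians of 1.27, 0.46 and 0.444 RPKM in T96K/T96K, T96K/+ and Trem2+/+ females, against 1.92 RPKM in NonTg females, and its place as first held under both other measures, with r of 0.74 after centring on genotype and depth set and rho of 0.73. Of the 10, 9 stayed among the first 50 with depth set centring and 10 with rho, and without the library labelled T96K/+ 22 Cd209f stayed first and 9 of the 10 stayed among the first 10. Of the 21 listed other genes of these macrophages that could be compared, 4 were among the first 10 and 8 among the first 100, while 8 had an r below 0 in at least 1 table. Those 8 were Ccl12, Hpgd, Blvrb, Slc40a1, Cd38, Ednrb, Igfbp4 and Dab2, which ranked last (0.09 and -0.35).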

How the data were processed

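Per the labels and the series' design text, CD11b- and CD45-sorted brain cells gave SMART-Seq v4 cDNA and Nextera XT libraries, and reads were aligned to mm9 with STAR. The submitters' processing notes also name HTSeq and edgeR, with versions not given in the sources used here. The authors deposited 1 table of RPKM values per sex, with gene lengths and no counts. RPKM times length came out as whole multiples of 1 step per library within 0.01 for 100% of values, so reads and totals were recovered from it. Run on those reads, limma voom called 2441, 2747, 3762 and 4151 genes in T96K/T96K, T96K/+, Trem2+/+ and their mean against NonTg. Within each genotype, 122 library pairs differed by at least 6.81 times sampling noise (chi-square per degree of freedom), so none was treated as a copy.

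Each table was fitted on its own with limma 3.58.1 (R 4.3.3, trended and robust) on log2(RPKM + 1), over genes that reached 1 RPKM in 5 or more libraries, with p adjusted by Benjamini-Hochberg over all of them. A difference on this scale understates the change of low genes. Sex differences came from 1 fit over both tables, which were normalized separately. The fit was tested on simulated data. The alternatives were a pseudocount of 0.1, no filter, quantile normalization, limma voom on recovered reads, each depth set alone or as a covariate, the endothelial level as a covariate, and libraries left out. The 10 genes and all lists were chosen with earlier results of these data known. All 10 are described in each comparison, of the other lists the called genes, and the 10 genes of highest likeness. Libraries are named by genotype and library number.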

Additional observations from a re-analysis of the deposited data

Results flagged for a closer look

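In 70 combinations of a gene and a genotype group, 8 had a highest or lowest library set apart from the rest by more than Dixon's 95% critical value on log2(RPKM + 1), where chance flags about 1 in 20. Female Trem2+/+ 19 stood above its group for Mrc1 (7.89 RPKM, next library 2.13), Cd163 (2.78 RPKM, next 0.783) and Lyve1 (3.02 RPKM, next 0.227). Female T96K/+ 33 stood above its group for Mrc1 (9.36 RPKM, next 3.23) and Cd163 (3.58 RPKM, next 1.41). For F13a1, T96K/T96K 9 was high at 17.4 RPKM (next 4.75) and NonTg 28 was low at 0.702 RPKM (next 3.50). Stab1 was low in T96K/+ 26, at 8.68 RPKM (next 17.8). Trem2+/+ 19 had 17.2 RPKM of summed platelet markers and 67.1 RPKM of summed monocyte markers, and T96K/+ 33 had 7.73 and 65.1 RPKM. No male library was set apart in this way, and no difference between the sexes passed the test.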

How the results depend on the processing

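No paired analysis was possible because no library number occurs in 2 genotypes of a table, and a female and a male library of the same number cannot be 1 mouse. The count of the 10 genes called against NonTg is given for T96K/T96K, T96K/+, Trem2+/+ and the mean of the 3, and was 1, 2, 2 and 2. It stayed there with a pseudocount of 0.1, quantile normalization, the depth set as a covariate and without the library labelled T96K/+ 22. It was 4, 5, 4 and 5 in shallow libraries alone, 0, 0, 0 and 0 in deep ones alone, 1, 0, 0 and 1 with the endothelial covariate, 1, 4, 4 and 4 without Trem2+/+ 19 and T96K/+ 33 (chosen after seeing the data), 1, 3, 2 and 3 with voom, and 1 in Trem2+/+ with no filter, where Folr2 had an adjusted p of 0.061. Leaving out each library in turn gave 1 to 2, 1 to 4, 1 to 4 and 1 to 4, and 0 to 0 in every T96K and sex comparison, where the count was 0 in each alternative run. Of all 14591 genes, leaving out libraries called 1436 to 2726, 1555 to 2809, 2397 to 3657 and 2450 to 3903 against NonTg. Voom called 2441, 2747, 3762 and 4151. For the endothelial covariate and for no filter the count over all genes is not given here. Those counts of the 10 genes have no background beside them. No called difference changed sign. Correlations without the library labelled T96K/+ 22, and the likeness of Mgl2 without Clec10a, were added after seeing the data. Without T96K/T96K 9, the uncalled F13a1 difference of T96K/T96K from Trem2+/+ females was -0.11, against 0.22 with it. The deep fit has 7 libraries, 1 of them Trem2+/+, whose spread was taken as that of the other groups, and deep males, 1 library a genotype, could not be fitted. Lyve1, Cd163 and Clec10a rest on as few as 0, 12 and 2 reads in a female library, so small differences in them were not detectable at this depth.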
